A study of Homo sapiens with 3 samples.

Results

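Peptide and amino acid transporters were followed across the single cells of a Caco-2 and HT29 co-culture. The set holds 9 of the 33538 genes in the count matrices, taken by symbol with earlier results of these data known: SLC15A1, SLC3A1, SLC7A9, SLC6A19, SLC7A7, SLC3A2, SLC7A5, SLC1A5 and SLC38A2. All 9 were found in the matrices, and none was without a unique molecular identifier (UMI), the tag that counts 1 captured RNA molecule.

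Both lines come from human colorectal adenocarcinomas, so the cells are tumour lines and not normal gut. Caco-2 cells (passage 8) and HT29 cells (passage 13) were mixed 9 to 1, seeded on Transwell inserts and grown until day 23. There were 2 untreated control libraries and 1 library from cells that received lipopolysaccharide (LPS, from E. coli O111:B4) on the apical side at 1 ng/ml from day 22, for 24 h. RNA of single cells was counted from its 3′ end on the Chromium platform.

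Control 1 held 33893707 UMIs, control 2 held 27934953 and the LPS library 24185467, over 19144 barcodes in all, and 14472 cells were kept, with a median of 5459, 4103 and 3573.5 UMIs per cell in that order. Between 9 and 11 barcodes were shared by any pair of libraries, and 0 of them held identical counts. The cells fell into 13 clusters made without the 9 transporters. The clusters were named from marker genes: 7 were Caco-2-like (3637 to 3859 cells per library), 1 of these was enterocyte-like (615 to 811 cells) and 1 other was HT29-like (605 to 890 cells). Genes listed for Caco-2 in an outside cell line collection took 35.5% to 41.2% of the UMIs in the Caco-2-like clusters against 28.5% in the HT29-like cluster, and those listed for HT29 took 9.33% to 10.1% against 16.1%. Levels are given as CPM, the UMIs of a gene per 1000000 UMIs of its class in that library. The assay reads transcript ends and is not scaled by length, so levels were compared between cells and not between genes. In a summed level, more cells with a transcript and more transcript per cell cannot be told apart.

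Dietary protein reaches the enterocyte as short peptides and free amino acids. The brush border takes up di- and tripeptides through SLC15A1 (PepT1), neutral amino acids through SLC6A19 (B0AT1) and cystine and cationic amino acids through SLC7A9 (b0,+AT), which works as a dimer with the glycoprotein SLC3A1 (rBAT). On the basolateral side SLC7A7 (y+LAT1) works as a dimer with the heavy chain SLC3A2 (4F2hc), which also pairs with SLC7A5 (LAT1), the large neutral amino acid exchanger of dividing cells. SLC1A5 (ASCT2) exchanges glutamine and other neutral amino acids, and SLC38A2 (SNAT2) is a sodium-coupled carrier of small neutral amino acids that is known to respond to amino acid supply.

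The genes lie on different chromosomes apart from SLC7A9 and SLC1A5. In GRCh38, SLC15A1 (ENSG00000088386) spans chr13:98683801-98752672 on the minus strand, SLC3A1 (ENSG00000138079) chr2:44275458-44321494 on the plus strand and SLC7A9 (ENSG00000021488) chr19:32830509-32869767 on the minus strand. SLC6A19 (ENSG00000174358) spans chr5:1201595-1225111 on the plus strand, SLC7A7 (ENSG00000155465) chr14:22773222-22829820 on the minus strand and SLC3A2 (ENSG00000168003) chr11:62856004-62888880 on the plus strand. SLC7A5 (ENSG00000103257) spans chr16:87830023-87869507, SLC1A5 (ENSG00000105281) chr19:46774883-46788594 and SLC38A2 (ENSG00000134294) chr12:46358188-46372773, each on the minus strand. Exons of SLC3A1 overlap those of PREPL on the opposite strand and those of a readthrough gene on its own strand. Exons of SLC7A5, SLC7A9 and SLC1A5 also overlap genes on the opposite strand. The strand setting of the counting was not given in the sources used here, so reads of these overlaps could not be assigned with certainty.

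The 250 bases before the start site are shown for SLC15A1, whose level was highest in the enterocyte-like cells, and for SLC7A5 and SLC1A5, whose levels were high in the HT29-like cells. The sequences are from RefSeq (GRCh38.p14), which gave a promoter for 8 of the 9 members, and are written 5′ to 3′ on the gene's own strand. Capitals mark a match to CACGTG (E-box) or TGATGNAA (amino acid response type), both searched on both strands.
SLC15A1, chr13:98752673-98752922, minus strand: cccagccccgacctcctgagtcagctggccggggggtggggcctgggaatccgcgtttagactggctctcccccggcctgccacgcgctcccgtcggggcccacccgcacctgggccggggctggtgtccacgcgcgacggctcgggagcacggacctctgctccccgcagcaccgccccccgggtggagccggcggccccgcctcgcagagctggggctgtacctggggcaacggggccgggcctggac
SLC7A5, chr16:87869508-87869757, minus strand: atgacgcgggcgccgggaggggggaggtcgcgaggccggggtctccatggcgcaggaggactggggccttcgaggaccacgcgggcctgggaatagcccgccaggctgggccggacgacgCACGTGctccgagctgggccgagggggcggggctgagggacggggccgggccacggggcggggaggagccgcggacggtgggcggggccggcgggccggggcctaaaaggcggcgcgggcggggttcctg
SLC1A5, chr19:46784815-46785064, minus strand, 1 of 3 promoters listed: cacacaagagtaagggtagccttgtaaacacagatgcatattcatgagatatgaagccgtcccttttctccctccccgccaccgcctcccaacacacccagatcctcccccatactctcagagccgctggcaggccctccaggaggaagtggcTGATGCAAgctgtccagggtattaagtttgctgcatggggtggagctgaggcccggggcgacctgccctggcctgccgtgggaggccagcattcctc

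The SLC15A1 promoter had 77.6% G and C, against a median of 58% over all 35116 promoters, and held neither motif. In SLC7A5 (79.6% G and C) an E-box began 130 bases before the start, and E-boxes were in 6.34% of all promoters. The SLC1A5 promoter shown held the amino acid response type, found in 3.14% of promoters, 97 bases before the start. Another of its promoters, chr19:46787294-46787543, held an E-box at 50 bases. Both lie inside the span of the gene, and the window directly before its annotated start, chr19:46788595-46788844, held neither motif. Of the 3 SLC7A7 promoters, all inside the gene, chr14:22815872-22816121 held an E-box at 225 bases and the other two held neither motif. No listed promoter of SLC3A2, SLC38A2, SLC6A19 or SLC7A9 held an E-box or the amino acid response type. A match is a string of letters in this window and not a binding site.

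The transporters followed several patterns. SLC15A1, SLC7A9 and SLC7A7 were highest in the enterocyte-like cells and low in the HT29-like cells, SLC3A1 was highest in the enterocyte-like cells but was also read in HT29-like cells, and SLC1A5 and SLC7A5 ran the opposite way. SLC3A2 and SLC38A2 differed by less between classes, and SLC6A19 was near the limit of detection.

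**Figure D1:**
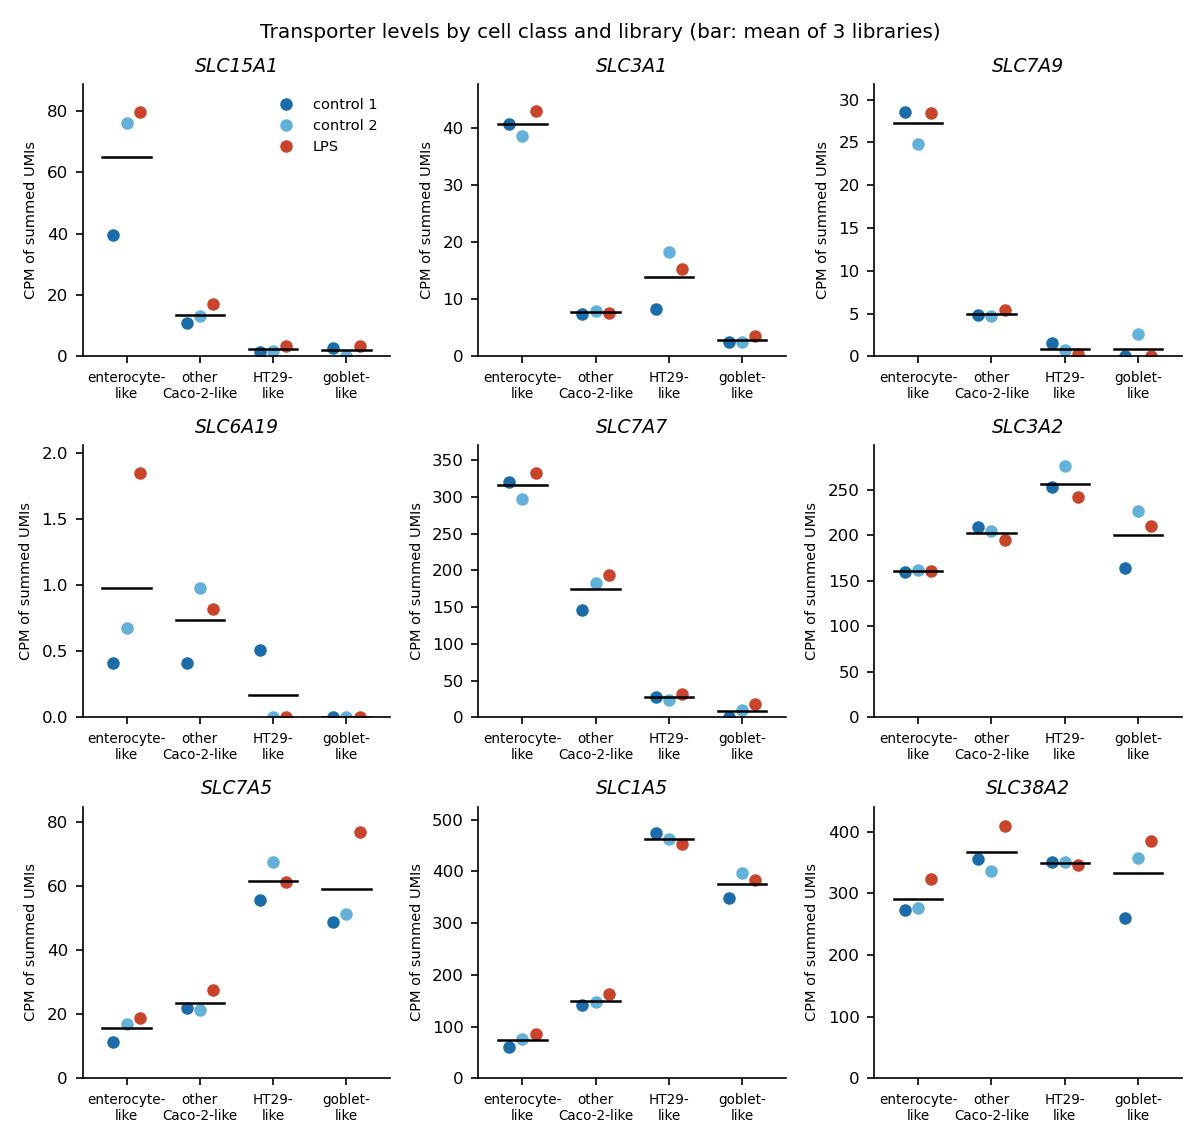
Level of each transporter (vertical axis, CPM of summed UMIs, scaled separately per gene) in enterocyte-like, other Caco-2-like, HT29-like and goblet-like cells, with 1 point per library and a bar at the mean of 3. SLC15A1, SLC3A1, SLC7A9 and SLC7A7 are highest on the left, and SLC1A5 reaches 452 to 475 CPM in HT29-like cells against 60.2 to 86.6 in enterocyte-like cells.

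Among the apical carriers, SLC15A1 stood at 39.6 CPM in enterocyte-like cells of control 1, 76.0 in control 2 and 79.6 in the LPS library. The other Caco-2-like cells held 10.9, 13.0 and 17.0 CPM in the same order. Every enterocyte-like value was above every other Caco-2-like value, although control 1 had about as many UMIs for this gene in each class (193 and 210). HT29-like cells held 1.52, 1.81 and 3.52 CPM, from 6, 7 and 12 UMIs. A UMI was found in 0.674% to 1.38% of HT29-like cells (median 3750 to 5540 UMIs per cell) and in 18.2% to 27.5% of enterocyte-like cells (median 3572.5 to 5182). As a yardstick for RNA free in the droplets, APOA4, an apolipoprotein of enterocytes, stood in HT29-like cells at 4.36% to 9.89% of its Caco-2-like level and APOA1 at 6.81% to 11.9%. SLC15A1 stood at 7.81% to 12.8%, below APOA1 in control 1 and above it in the other libraries. APOA1 reached 69 to 138 UMIs in single HT29-like cells, so it is not a measure of free RNA alone, and the part of free RNA in the HT29-like level of SLC15A1 was not tested. Intervals and floors cover counting error only.

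SLC7A9 gave 28.6, 24.8 and 28.5 CPM in enterocyte-like cells of control 1, control 2 and LPS, and 4.86, 4.70 and 5.46 in the other Caco-2-like cells. The classes did not overlap. In HT29-like cells the counts were 6, 3 and 1 UMIs, which is 15.8%, 9.76% and 3.15% of the Caco-2-like level. These shares lay above those of APOA4 and APOA1 in both controls and below them in the LPS library. From so few UMIs that order cannot be read. Control 2 held just the 3 UMIs that set the floor (0.774 CPM), and the LPS library was below its floor (0.293 against 0.880). Its partner SLC3A1 gave 40.7, 38.7 and 42.9 CPM in enterocyte-like cells and 7.50, 8.02 and 7.62 in the other Caco-2-like cells, again without overlap. HT29-like cells, however, held 8.37, 18.3 and 15.3 CPM of SLC3A1, from 33, 71 and 52 UMIs. The HT29-like values of the rBAT gene were thus 59.1% to 141% of the Caco-2-like ones, far above the share of APOA4 or APOA1. PREPL, the gene that overlaps SLC3A1 on the opposite strand, was itself higher in HT29-like cells (76.9, 97.3 and 110 CPM) than in enterocyte-like cells (21.0, 31.9 and 22.9 CPM), and its part in the SLC3A1 counts was not tested. Goblet-like cells, with 113 to 150 CPM of PREPL, held 1 SLC3A1 UMI in each library.

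SLC6A19 was counted 47 times in all, 13 in control 1, 18 in control 2 and 16 in the LPS library. Enterocyte-like cells held 2, 2 and 5 UMIs, and the other Caco-2-like cells held 8, 15 and 11. The enterocyte-like levels were 0.411, 0.678 and 1.85 CPM, against a floor of 0.616 to 1.11 CPM that 3 UMIs would give. HT29-like cells held 2, 0 and 0 UMIs, which allows up to 0.774 CPM in control 2 and 0.880 in the LPS library. SLC6A19 was too low to pass the filter on low counts and was not tested between these classes. Where it was tested it passed as higher in enterocyte-like cells under 2 alternatives, without doublet removal (log2 fold change 1.23 ± 0.43, edgeR adjusted p = 0.018) and with clusters from log normalization without integration (1.07 ± 0.48, adjusted p = 0.0455), and it did not without the filter (0.48 ± 0.67, adjusted p = 0.725). The enterocyte-like class was larger in both alternatives that passed. It held clusters of 2326 and 1240 cells without doublet removal and 3493 cells with log normalization, against 2084 cells in the main clusters. In the main clusters SLC6A19 was higher in enterocyte-like than in other Caco-2-like cells in 1 of 3 libraries.

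On the basolateral side, SLC7A7 gave 320.0 CPM in enterocyte-like cells of control 1, 297 in control 2 and 332 in LPS. The other Caco-2-like cells gave 146, 183 and 194 CPM, and the HT29-like cells 28.2, 23.2 and 32.3. The 3 classes did not overlap in any library. HT29-like cells held 11.5% to 15.5% of the Caco-2-like level, from 90 to 111 UMIs, which was above the shares of APOA4 and of APOA1 in each library. How much of it was free RNA was not tested. In goblet-like cells SLC7A7 had 0, 4 and 5 UMIs.

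SLC3A2, the heavy chain of both SLC7A7 and SLC7A5, gave 252, 276 and 242 CPM in HT29-like cells. Enterocyte-like cells gave 160.0, 162 and 160.3 CPM and the other Caco-2-like cells 209, 204 and 195. The HT29-like values were above those of every other class shown and the enterocyte-like values below them. SLC7A5 gave 55.8, 67.6 and 61.3 CPM in HT29-like cells, 21.9, 21.3 and 27.5 in the other Caco-2-like cells and 11.5, 17.0 and 18.9 in the enterocyte-like cells, without overlap of these 3 classes. Goblet-like cells, at 48.8, 51.4 and 76.9 CPM, overlapped the HT29-like range.

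SLC1A5 gave 475, 463 and 452 CPM in HT29-like cells of control 1, control 2 and LPS. Goblet-like cells held 349, 396 and 384, the other Caco-2-like cells 141, 147 and 162, and the enterocyte-like cells 60.2, 76.0 and 86.6 CPM. These 4 classes kept that order in every library and did not overlap. SLC38A2 gave 350.5, 350.0 and 346 CPM in HT29-like cells, 355, 336 and 408 in the other Caco-2-like cells and 273, 275 and 322 in the enterocyte-like cells. HT29-like and other Caco-2-like cells overlapped for the SNAT2 gene, and enterocyte-like cells were lower than other Caco-2-like cells within each library.

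The share of cells with a UMI followed the same classes, and part of it followed depth. SLC7A7 was detected in 63.5% to 77.1% of enterocyte-like cells and 8.20% to 12.1% of HT29-like cells, and with every cell thinned to 1500 UMIs in 33.8% to 37.7% and 2.83% to 3.59%. SLC1A5 was detected in 73.0% to 86.0% of HT29-like and 25.4% to 28.4% of enterocyte-like cells, thinned to 46.2% to 49.1% and 8.02% to 10.9%. Thinned shares of SLC15A1 were 5.83% to 12.7% in enterocyte-like, 1.76% to 2.80% in other Caco-2-like and 0.103% to 0.392% in HT29-like cells. PepT1 transcripts were thus seen in a minority of the enterocyte-like cells at this depth, which does not show that the others lacked them. For SLC3A2 the thinned shares lay closer than for these genes but did not overlap, 29.8% to 32.8% in HT29-like and 20.7% to 21.8% in enterocyte-like cells.

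The question of which transporters differ between the lines was tested on UMIs summed per class and library, with the library as a block, by the quasi-likelihood test of edgeR. The p-values rest on the spread between 3 libraries, which may be technical and was moderated across the genes tested. Each SE is the absolute log2 fold change divided by the square root of the test's F value, so it carries the same moderation. The clusters were made from other genes of the same cells. Of 14379 genes tested, 72.1% passed an adjusted p of 0.05 between HT29-like and Caco-2-like cells, and 6 of 8 members did, a share near that background. The median absolute log2 fold change was 1.58 for the members and 0.77 for all genes, and 5 of 8 members against 40.3% of genes were past a 2-fold change. The members were chosen with earlier results of these data known, so these figures only describe them.

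SLC15A1 was lower in HT29-like cells by a log2 fold change of -3.35 ± 0.22 (SE of the fit, edgeR adjusted p = 1.81e-18). SLC7A9 was lower by -3.36 ± 0.33 (edgeR adjusted p = 1.82e-12). The log2 ratio of the SLC7A9 CPM values was -2.66 in control 1, -3.36 in control 2 and -4.99 in LPS. SLC7A7 was lower by -2.89 ± 0.11 (edgeR adjusted p = 8.78e-28). For SLC15A1 and SLC7A9 the HT29-like side rests on 25 and 10 UMIs, and the part of free RNA in them was not tested. SLC1A5 was higher by 1.72 ± 0.09 (edgeR adjusted p = 8.44e-23), SLC7A5 by 1.44 ± 0.11 (adjusted p = 2.94e-16) and SLC3A2 by 0.35 ± 0.09 (adjusted p = 0.00037). SLC3A1 (-0.02 ± 0.17, edgeR adjusted p = 0.905) and SLC38A2 (-0.06 ± 0.08, adjusted p = 0.553) did not pass. The SLC3A1 value covers a split, since the HT29-like level lay below the enterocyte-like level and, in every library, above that of the other Caco-2-like cells. It also moved with the clustering and the libraries: it was -0.58 (edgeR adjusted p = 0.0134) at a finer cluster resolution, and 0.31 without control 1. At that resolution the HT29-like cluster held 1434 cells instead of 2290, and the goblet-like cluster 1112 instead of 251. An unnamed cluster of 1825 cells also counted for neither line there. The largest such cluster among the main clusters held 332 cells.

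Enterocyte-like cells were then set against the other Caco-2-like cells, in a separate fit. Of 13749 genes, 56.5% passed, and 6 of 8 members did. With only 8 members, this share was not tested against that background. The median absolute log2 fold change was 0.96 for the members against 0.45 for all genes, again for members chosen with earlier results known. For the median gene the fitted value differed by 0.21 from the log2 ratio of the CPM values in this comparison, and by -0.05 in that of the lines.

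All 3 tested brush border genes were higher in enterocyte-like cells. SLC7A9 rose by 2.68 ± 0.14 (edgeR adjusted p = 1.1e-25), SLC3A1 by 2.62 ± 0.12 (adjusted p = 1.33e-29) and SLC15A1 by 2.43 ± 0.10 (adjusted p = 8.06e-32), which are 6.39-, 6.15- and 5.4-fold differences. The basolateral SLC7A7 rose by 1.09 ± 0.07 (edgeR adjusted p = 4.64e-23). SLC1A5 was lower by -0.82 ± 0.07 (edgeR adjusted p = 5.47e-16) and SLC7A5 by -0.40 ± 0.13 (adjusted p = 0.00557). The SLC7A5 call was lost without doublet removal (adjusted p = 0.414), with DESeq2 (0.125), without control 1 (0.192) and without the library block (0.0582). SLC3A2 (-0.12 ± 0.06, edgeR adjusted p = 0.0953) and SLC38A2 (-0.12 ± 0.06, adjusted p = 0.0745) did not pass. The study placed SLC7A9, SLC15A1 and SLC3A1 among the genes of its enterocyte-like cells and SLC1A5 and SLC7A5 among those of other clusters, from the same control libraries, so their direction here is not independent evidence. Of 7 markers of cells that neither line should hold, the summed level was 60.8 to 62.9 CPM in enterocyte-like cells and 30.9 to 34.8 in the other Caco-2-like cells. Most of it was CD68, a lysosomal protein gene (45.5 to 46.8 against 16.9 to 17.2 CPM), followed by COL1A1, a collagen gene (7.5996 to 12.2 against 8.43 to 11.3 CPM), CD3E, a T cell receptor subunit gene (2.46 to 3.39 against 2.54 to 4.04), and PECAM1, an endothelial adhesion gene (1.85 to 4.41 against 1.71 to 2.09). The leukocyte gene PTPRC and the fibroblast genes COL3A1 and DCN were at or near 0 in both. The part of these markers in the result was not tested.

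**Figure D2:**
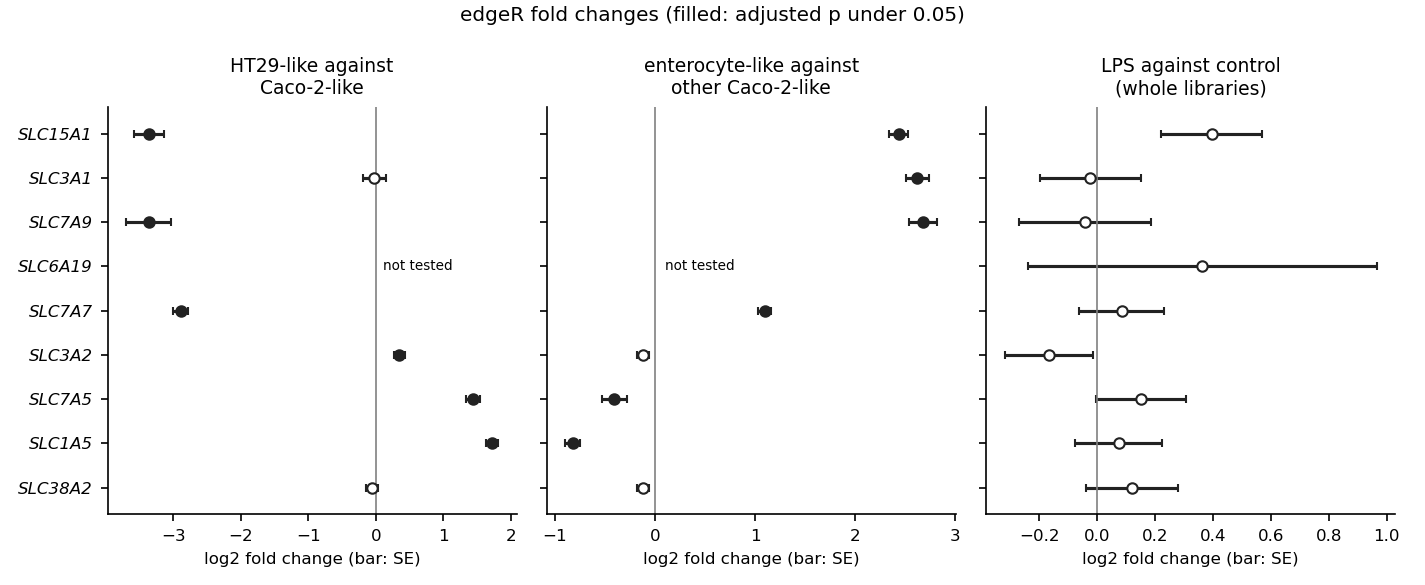
Fitted log2 fold changes (horizontal axis, bar: SE) of the transporters in 3 comparisons, with filled points where the edgeR adjusted p is under 0.05. SLC15A1, SLC7A9 and SLC7A7 lie left of 0 between the lines and right of 0 in enterocyte-like cells, SLC1A5 and SLC7A5 do the reverse, and no point is filled for LPS.

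Within the Caco-2-like cells the levels also varied between clusters that were not enterocyte-like. In cluster 5 (792 cells), led by SST, ITGA5, SLC2A3 and SLC26A2 and without a cell type name, SLC15A1 stood at 37.0 ± 8.58 CPM (SD, n = 3), SLC3A1 at 25.4 ± 0.815 and SLC7A7 at 273 ± 13.2. Among the 11 clusters with at least 20 cells per library all 3 were second only to the enterocyte-like cluster, and for SLC3A1 the lowest library of the higher cluster was above the highest of the lower one at both steps, to cluster 5 and from it. SLC7A9 was not raised there: its 6.66 ± 3.84 CPM could not be told from clusters 1 (7.22 ± 1.87) and 6 (5.85 ± 1.19). SLC3A1 and its light chain partner thus did not run together in cluster 5. SLC7A5 had its highest Caco-2-like mean there (44.4 ± 4.69 CPM), followed by the proliferating-like cluster (35.4 ± 5.70). That order was reversed in the LPS library (39.0 against 41.3 CPM). The enterocyte-like cluster (15.8 ± 3.83 CPM) was not the lowest for SLC7A5. Clusters 1 (12.1 ± 5.00) and 6 (13.6 ± 4.95) had lower means, cluster 1 in every library.

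SLC6A19 had its highest mean in cluster 5 as well, 3.59 ± 2.00 CPM from 11 of its 47 UMIs, above the enterocyte-like cluster (0.980 ± 0.766) in each library but with overlapping ranges. Among the same 11 clusters SLC38A2 was highest in cluster 5 (450 ± 46.3 CPM) and in the enteroendocrine-like cluster (448 ± 109). It was lowest in the enterocyte-like one (290 ± 27.8), yet no neighbouring pair in its order was separated in all libraries. Among these 11 clusters SLC3A2 ran from 256 ± 17.4 CPM in HT29-like cells to 112 ± 22.6 in the enteroendocrine-like cluster. The stem-like cluster 0 (239 ± 4.98) and the proliferating-like cluster (228 ± 10.2) came next after the HT29-like cells. The other stem-like cluster, cluster 7, held less SLC3A2 (153 ± 25.5 CPM). SLC1A5 was at 199 ± 16.0 CPM in the proliferating-like and 169 ± 13.0 in the stem-like cluster 0, each above the 74.3 ± 13.3 of the enterocyte-like cluster. In the other direction SLC15A1 had its lowest mean among Caco-2-like cells in the proliferating-like cluster (6.37 ± 2.48), as did SLC3A1 (2.71 ± 0.512). For SLC15A1 the stem-like cluster 0 (7.42 ± 1.00) was close, and lower in the LPS library (8.37 against 9.19 CPM).

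**Figure D3:**
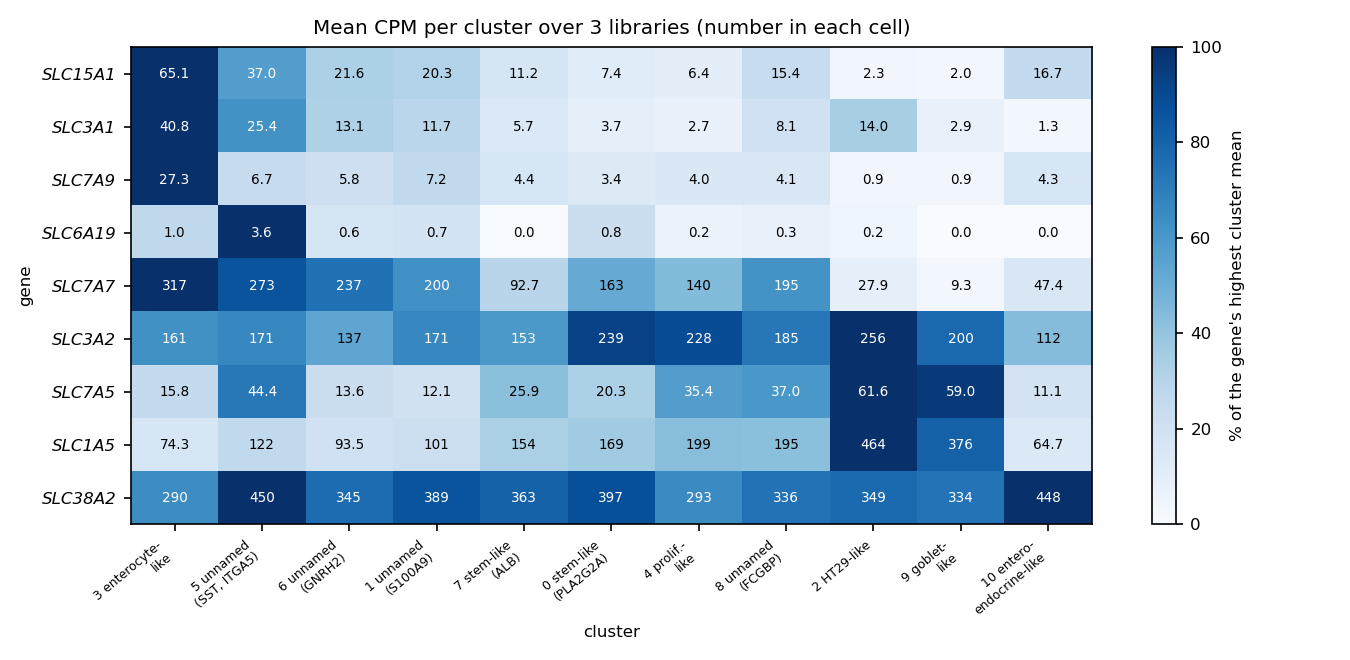
Mean CPM over 3 libraries (number in each cell) of each transporter (vertical axis) in the 11 clusters with at least 20 cells per library (horizontal axis, cluster number with name or leading genes), shaded by percent of the gene's highest cluster. SLC15A1, SLC3A1 and SLC7A7 are next highest in cluster 5, whereas SLC7A9 stands at 27.3 CPM in the enterocyte-like cluster and 6.66 in cluster 5, and SLC1A5 peaks in the HT29-like cluster.

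Across these 33 points of 11 clusters and 3 libraries, which share libraries and depth, the members grouped as above on the log2 scale of CPM with 10 added. Pearson's r was 0.82 for SLC1A5 with SLC7A5, 0.74 for SLC15A1 with SLC7A7, 0.73 for SLC15A1 with SLC7A9 and 0.68 for SLC3A1 with SLC7A9. It was 0.73 for SLC1A5 with SLC3A2 and -0.71 for SLC15A1 with SLC1A5. For the heavy chain SLC3A2 it was 0.61 with its light chain SLC7A5 and -0.12 with SLC7A7. Among 8340 genes the patterns most like SLC15A1 were those of GPR157 (0.91), SLC51A (0.90), a basolateral bile acid and steroid carrier subunit, and ATP8B2 (0.90). SLC7A9 was nearest to CUBN (0.88), the apical receptor for vitamin B12 with intrinsic factor, PTTG1IP (0.87) and MAF (0.85). CUBN was also 1 of the markers that named the enterocyte-like cells. SLC7A9 averaged 6.26 CPM over these points, below the 10 added, with 27.3 in the enterocyte-like cluster and at most 7.22 in any other. Nearest to SLC3A1 were NPNT (0.91), PTPRR (0.90) and SLC9A3R1 (0.90), a scaffold protein of the brush border. Nearest to SLC7A7 were TIMP3, SLCO2B1 and NPC2 (0.94 each). SLC1A5 ran closest to KRT18 (0.95) and to GARS and IARS (0.94 each), which charge transfer RNA with glycine and isoleucine. SLC7A5 ran closest to SHMT2 (0.91), a mitochondrial enzyme of serine and glycine metabolism, FASN and NAA50 (0.88 each), and SLC3A2 to ME1 (0.84), TNFRSF12A (0.78) and ANXA3 (0.77). SLC38A2 had no close match (TCF20, 0.75), and SLC6A19 had too few UMIs for its nearest genes to be read.

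Because the light chains reach the membrane as dimers, detection of both subunits in the same cell was compared per class. In enterocyte-like cells of control 1, 18.5% of the 168 cells with an SLC3A1 UMI also had one of SLC7A9 (95% exact interval 12.9 to 25.2), against 12.3% of those without (9.85 to 15.1). The shares were 14.9% and 9.60% in control 2 and 16.2% and 9.12% in the LPS library. The share was higher with the partner in each library, but the intervals overlapped, and cells with an SLC3A1 UMI were deeper (median 6307.5 against 4975 UMIs in control 1). The other Caco-2-like cells showed no such steady difference. Their shares with and without an SLC3A1 UMI were 3.05% and 3.09% in control 1, 1.75% and 2.34% in control 2, and 3.03% and 2.19% in LPS. In the HT29-like cells 0 of 26, 0 of 61 and 0 of 46 cells with an SLC3A1 UMI had one of SLC7A9, which allows shares of up to 13.2%, 5.87% and 7.71%. Only 5, 3 and 1 HT29-like cells held any SLC7A9 UMI, so these joint counts cannot show whether the subunits go together there.

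For the pairs of SLC3A2, an SLC7A5 UMI was found in 33.2%, 27.7% and 24.7% of HT29-like cells with an SLC3A2 UMI in control 1, control 2 and LPS, against 18.2%, 19.0% and 12.6% of those without. SLC7A7 was found in 80.4%, 68.9% and 64.8% of enterocyte-like cells with an SLC3A2 UMI, against 72.8%, 59.0% and 62.4% of those without. Both shares were higher with the heavy chain in every library. In HT29-like and in other Caco-2-like cells the intervals did not overlap in any library, for SLC7A5 or for SLC7A7. In enterocyte-like cells those of SLC7A7 overlapped in all 3 libraries, and those of SLC7A5 in control 2 and LPS but not in control 1. These intervals take each cell as a unit and narrow with the number of cells. Cells with an SLC3A2 UMI numbered 293 to 455 per library in the enterocyte-like and 1469 to 1711 in the other Caco-2-like class. Whether the classes differed was therefore not tested by this overlap. The cells with the heavy chain were again deeper (median 6152 against 4636.5 UMIs in HT29-like cells of control 1). The part of depth in these differences was not tested.

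**Figure D4:**
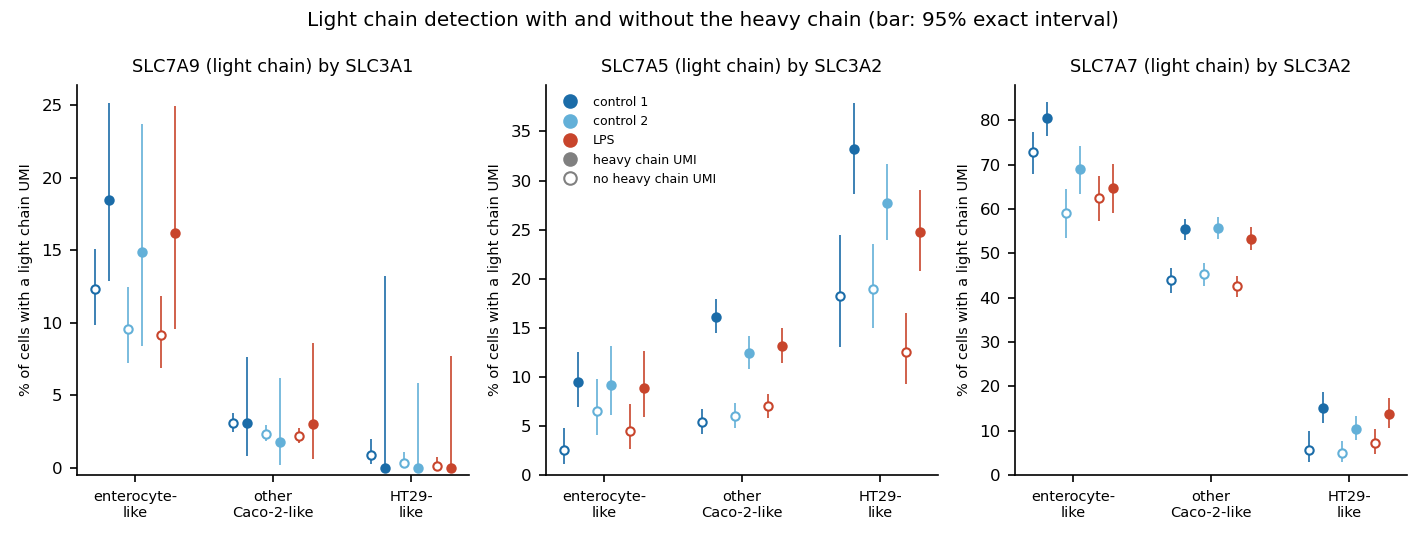
Percent of cells with a UMI of the light chain (vertical axis) in cells with (filled) and without (open) a UMI of the heavy chain, per class and library, with 95% exact intervals. SLC7A9 with SLC3A1 reaches 14.9% to 18.5% in enterocyte-like cells. It is 0% in HT29-like cells, where only 5, 3 and 1 cells per library held any SLC7A9 UMI. SLC7A5 with SLC3A2 is highest in HT29-like cells among the 3 classes plotted.

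The single LPS library was compared with the controls on UMIs summed over all kept cells, with 1 residual degree of freedom, so the lone library was taken to spread like the controls. Of 16135 genes 0.105% (17) passed, and 0 of the 9 members did (edgeR), while 751 genes had an unadjusted p under 0.05, and DESeq2 called 6 genes and 0 members. SLC15A1 was at 14.2 and 18.8 CPM in the controls and 22.8 in the LPS library. Its log2 change was 0.40 ± 0.17 (edgeR adjusted p = 0.956), with the only member p under 0.05 before adjustment (0.0339), and it was 0.21 against control 2 alone and 0.55 against control 1 alone. The LPS value lay above both controls in the enterocyte-like, other Caco-2-like and HT29-like cells, but in enterocyte-like cells the controls differed by more from each other (39.6 and 76.0 CPM) than control 2 did from LPS (79.6).

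The other members did not pass either. SLC3A1 was at 12.9 and 13.0 CPM in the controls and 13.5 under LPS, and SLC7A9 at 8.27 and 6.23 against 7.49, inside the range of the controls. SLC7A7 was at 157 and 167 against 181 CPM, SLC3A2 at 206 and 213 against 197, and SLC7A5 at 26.1 and 30.8 against 33.3. SLC1A5 gave 174 and 194 against 205 CPM and SLC38A2 341 and 332 against 386. SLC3A2 was thus below both controls and SLC3A1, SLC7A7, SLC7A5, SLC1A5 and SLC38A2 above both, although the fitted change of SLC3A1 was -0.02 ± 0.18. Fitted log2 changes of these 7 genes ran from -0.17 ± 0.15 (SLC3A2, edgeR adjusted p = 0.963) to 0.15 ± 0.16 (SLC7A5, adjusted p = 0.963), and SLC6A19, at 0.434 and 0.738 against 0.783 CPM, gave 0.36 ± 0.60 (edgeR adjusted p = 0.968). For SLC15A1, SLC3A1, SLC6A19, SLC7A7, SLC7A5 and SLC1A5 the order from control 1 through control 2 to LPS was the reverse of that of the median UMIs per cell, and the part of depth was not tested. HT29-like cells made up 13.1%, 17.8% and 16.4% of the cells in the same order.

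Whether the LPS change differed between the lines was tested with an interaction term, added after the data were seen. None of 14921 genes passed (edgeR), 480 had an unadjusted p under 0.05, and the lowest member p was 0.117, for SLC7A9 with its 10 HT29-like UMIs. SLC38A2 was higher than both controls in enterocyte-like (322 against 273 and 275 CPM) and other Caco-2-like cells (408 against 355 and 336) and not in HT29-like cells (346 against 350.5 and 350.0), with an interaction of -0.23 ± 0.17 on the log2 scale that did not pass.

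The other genes of amino acid and peptide handling were described by lists. Of 40 other plasma membrane transporters and partners, 30 were tested between the lines, and 13 were higher and 13 lower in HT29-like cells (edgeR), beside 72.1% of all genes called. SLC6A14, a broad neutral and cationic amino acid carrier, was at 16.2 ± 1.44 CPM (SD, n = 3) in HT29-like cells and 0.0547 ± 0.0948 in Caco-2-like cells (adjusted p = 2.54e-23, edgeR). The cationic amino acid carrier SLC7A2 was at 3.75 ± 1.87 against 42.5 ± 6.58 CPM, the proton-coupled carrier SLC36A1 at 5.34 ± 2.13 against 59.4 ± 6.65, and the glutamate carrier SLC1A3 at 0.807 ± 0.270 against 14.3 ± 2.39. In enterocyte-like cells 9 of 29 tested were higher and 9 lower, a share near the 56.5% of all genes. The creatine carrier SLC6A8 was at 253 ± 42.3 against 79.0 ± 14.1 CPM in the other Caco-2-like cells (edgeR adjusted p = 8.18e-36), while SLC7A2 was lower at 7.13 ± 0.881 against 49.99 ± 7.15. A member of this list was also 1 of the markers that named these cells.

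Brush border and luminal peptidases, which release the substrates of PepT1, were counted beside the same background. Of 14 listed, 10 were tested: 7 were lower and 3 higher in HT29-like cells (median log2 fold change -2.01, against -0.07 for all genes), and 8 were higher and 1 lower in enterocyte-like cells (1.67, against -0.02). The aminopeptidase ANPEP was at 79.0 ± 7.85 CPM in enterocyte-like, 17.4 ± 1.98 in other Caco-2-like and 2.68 ± 0.218 in HT29-like cells. Meprin subunit MEP1A was at 187 ± 30.4, 49.7 ± 8.73 and 8.85 ± 1.00 CPM, and the X-prolyl aminopeptidase XPNPEP2 at 42.1 ± 9.28, 5.09 ± 2.09 and 0.763 ± 1.11. ANPEP and DPP4 also served as markers.

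Genes of the ATF4 pathway, the amino acid response that is known to act on SLC7A5, SLC3A2, SLC1A5 and SLC38A2, were counted next. All 28 were tested, and 23 were higher and 4 lower in HT29-like cells (median 1.13), beside 72.1% of all genes called, 4954 higher and 5408 lower. In enterocyte-like cells 3 were higher and 19 lower (median -0.75), beside 56.5% of all genes, 3923 higher and 3843 lower. The serine synthesis enzyme PSAT1 was at 85.2 ± 12.9 CPM in HT29-like cells, 16.3 ± 1.32 in other Caco-2-like and 1.58 ± 0.707 in enterocyte-like cells. WARS, which charges transfer RNA with tryptophan, was at 44.7 ± 2.59 against 9.40 ± 0.310 CPM in Caco-2-like cells, and the stress gene NUPR1 at 207 ± 138 against 1.42 ± 0.478, with a wide spread between libraries. STC2 went the other way, at 2.34 ± 0.512 against 38.3 ± 4.01 CPM. In enterocyte-like cells asparagine synthetase ASNS was lower, at 7.40 ± 4.14 against 42.6 ± 4.76 CPM, and the mitochondrial folate enzyme MTHFD2 at 26.4 ± 9.08 against 131 ± 21.0.

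Of 10 transcription factors known for the enterocyte programme or for transporter genes, 9 were tested between the lines. Of these 9, 4 did not pass (edgeR), beside 72.1% of all genes called, so the called share was below that background. CDX1 was higher in HT29-like cells (8.12 ± 1.45 against 0.0621 ± 0.0620 CPM), and 4 were lower, among them CDX2 at 11.9 ± 5.43 against 98.7 ± 2.38 CPM, HNF4A at 31.1 ± 5.996 against 131 ± 18.6 and GATA6 at 20.4 ± 4.80 against 54.9 ± 1.03. Within the Caco-2-like cells PPARA (61.8 ± 9.95 against 31.1 ± 2.56 CPM), HNF4A (210 ± 27.7 against 115 ± 16.6), CDX2 (155 ± 17.0 against 86.8 ± 2.19) and HNF4G (5.71 ± 1.30 against 3.86 ± 1.15) were higher in the enterocyte-like cells, and MYC (22.0 ± 8.95 against 50.5 ± 2.55) and GATA6 (42.2 ± 6.84 against 57.7 ± 0.688) were lower. Of 8 tested in this second comparison 2 did not pass (edgeR), beside 56.5% of all genes called. HNF4A was among the Caco-2 markers. Under LPS the median log2 fold change (edgeR) was 0.147 for the 32 tested transporters and 0.0085 for the 10 peptidases. It was 0.027 for the 28 ATF4 pathway genes and -0.039 for the 10 transcription factors, against 0.0069 for all genes. With 1 LPS library these medians have no replicate.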

How the data were processed

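RNA of single cells was counted in 3 libraries, 2 controls and 1 with LPS. The count matrices deposited by the authors hold raw UMI counts per gene and barcode, made with Cell Ranger (3.1.0 in the matrix header) on GRCh38, without normalization. Cells with at least 2250 UMIs and 770 genes in control 1, or 1500 UMIs and 700 genes in control 2 and the LPS library, and under 20% mitochondrial UMIs were kept. The study states no minimums for the LPS library, so those of control 2 were used. Scrublet's automatic threshold marked 0, 0 and 1 cells, so the 6% with the highest scores were removed. Libraries were normalized with sctransform 0.4.2 and integrated in Seurat 5.3.0 (3000 features, 50 components), and clustered with leidenalg 0.10.2 at resolution 0.5, without the members and the listed genes (101 symbols). Clusters were named from marker lists, and the naming rule was set after clusters had been seen. UMIs were summed per class and library and tested in edgeR 4.0.16 by quasi-likelihood (R 4.3.3, TMM, low counts filtered, Benjamini-Hochberg threshold 0.05), the library as a block (2 residual degrees of freedom) for the classes. The test was checked on simulated counts with few changed genes and no library effect beyond depth. The class comparisons, where most genes passed, are unlike that setting, so the check does not cover them. DESeq2 1.42.0, other cell minimums, resolutions, scalings and left-out libraries were alternatives. All 9 members are named, and of each list at most 6 genes, those with the largest change among genes past the threshold and changed alike in every library. The members and lists were chosen with earlier results of these data known. Some genes and a promoter motif that were examined are not reported here.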

Additional observations from a re-analysis of the deposited data

How the results depend on the processing

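The count of genes past the threshold between the classes stayed within 1.5 times under every alternative run, and no member past 2-fold lost its call in either class comparison. The count under LPS, 17, was 0 in HT29-like cells alone, 11 without doublet removal, 4 with the minimums of control 1, 46 without the filter on low counts and 6 with DESeq2, and 0 members were called in any of these. Of 288 member fold changes under alternatives, 268 kept direction and side of the threshold, 10 reversed, 6 gained a call and 4 lost it. Between the lines SLC38A2 was 0.039 at resolution 0.8 and ran from -0.11 to 0.053 leaving out 1 library, and SLC3A1 was 0.028 without doublet removal and ran from -0.30 to 0.31. In enterocyte-like cells SLC3A2 was 0.053 at resolution 0.8 and was called lower under 4 alternatives (-0.17 to -0.36). Under LPS in HT29-like cells alone SLC1A5 was -0.11, SLC3A1 0.14, SLC7A5 -0.064 and SLC38A2 -0.075, and SLC7A9 ran from -0.27 to 0.20 leaving out a control. The causes were not tested. Thinning every cell to 1500 UMIs can only lower the share of cells with a UMI. As a mean of the libraries this share went from 8.04% to 2.95% for SLC15A1 and from 73.3% to 40.05% for SLC38A2. No paired analysis was possible because control and LPS libraries share 1 replicate number, and the class comparisons block on the library already. Depth limits SLC6A19 (47 UMIs) and the HT29-like levels of SLC15A1 and SLC7A9 most, and with 1 LPS library its changes have no replicate.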

Other observations

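Smaller clusters outside the line classes also held transporter UMIs. In the cluster that expressed placental genes (FABP7, PTN, XAGE3, ALPG; 69 cells, 8 of them in the LPS library) SLC7A5 was at 141 ± 15.9 CPM (SD, n = 3) and SLC3A2 at 354 ± 169, with 0 UMIs of SLC3A1. In cluster 12 (50 cells, led by NEAT1 and CYP3A5, with a median of 1943.5 UMIs) SLC7A5 was at 106 ± 19.1 CPM from 11 UMIs and SLC7A7 had 1 UMI. SLC38A2 had its highest means in these small clusters, 531 ± 232 CPM in the placental one and 473 ± 85.4 in cluster 12. In the enteroendocrine-like cluster (193 cells) SLC1A5 was at 64.7 ± 13.3 CPM and SLC3A2 at 112 ± 22.6, the lowest of the 11 larger clusters for each, while SLC38A2 was among the highest. In cluster 8 (332 cells, led by FCGBP and PAGE4, with the highest median of 7122 UMIs per cell) the members lay between the Caco-2-like and HT29-like levels for SLC1A5 (195 ± 30.9 CPM) and SLC7A5 (37.0 ± 5.94).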
